A study of Mus musculus with 3 samples.

Results

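The genes described here are the protein components of telomerase and of shelterin, the complex that coats telomeres, in B16 cells. They were chosen by name: Tert and Dkc1 for telomerase, and Terf1, Terf2, Terf2ip, Pot1a, Pot1b, Acd and Tinf2 for shelterin. All 9 genes had a row in the deposited table, out of 17285 rows in all, and no listed gene was without a row. B16 is an established mouse melanoma line, and the cells sequenced stably carried an empty expression vector (Mock). The group holds 3 samples, Mock replicates 1, 2 and 3, so there is no other genotype, treatment or time point to set them against. All 3 carry the vector backbone, and nothing in the labels says that each was its own culture. The p-values therefore describe the spread among these libraries, some or all of which may be technical.

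Telomeres are the repeats at chromosome ends that shorten as cells divide. Telomerase extends them with a reverse transcriptase, TERT, which copies an RNA template, Terc, and dyskerin (Dkc1) holds that RNA in a stable particle. Shelterin hides the ends from DNA repair: TRF1 (Terf1) and TRF2 (Terf2) bind the duplex repeats, RAP1 (Terf2ip) rides on TRF2, TIN2 (Tinf2) links both of them to TPP1 (Acd), and TPP1 brings POT1 to the overhang and telomerase to the end. Rodents carry a duplicated Pot1 gene, Pot1a and Pot1b. Tumour cells need a way to maintain telomeres, and many mouse tissues keep some telomerase, unlike most human tissues.

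The libraries held 9328087 to 9456501 counts after rounding, and 1 read was worth 0.106 to 0.107 CPM (the count scaled to the library total). All 8 pigment cell markers were above 1 CPM, as were 74.3% of all tested genes. Tyrp1 was highest at 12337.4 ± 399 CPM (mean ± SD over n = 3 libraries, here and throughout). The lowest was Tyr at 6.52 ± 0.839 CPM. Of 16 leukocyte, fibroblast and endothelial markers none was above 1 CPM and 13 had no count, beside 2877 of all 17285 rows with no count. The 16 together summed to 0.106 to 1.06 CPM per library. The levels are those of a bulk culture, in which fewer cells that express a gene and less RNA per cell cannot be told apart.

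All 9 genes were transcribed above 1 CPM, over a 25.6-fold range of CPM from Tert to Dkc1, or 35.7-fold per kilobase of exon. The level of each was set against 1 CPM with edgeR's quasi-likelihood F test and Benjamini-Hochberg adjustment over 14408 genes, of which 74.3% were called above and 20.2% below. With so large a share above, 9 of 9 says only that none of these genes was silent or near the floor. The largest adjusted p of the 9, that of Tert, was 9.37e-07. The median of the 9 genes was 28.8 CPM (5.69 CPM per kilobase), beside 23.6 (4.92) over all tested genes, and 7 of the 9 lay above that general median. Those below it were Tert and Pot1b.

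Tert, the catalytic subunit, was the lowest of the 9, by CPM and per kilobase of exon. It collected 45, 36 and 41 reads in replicates 1, 2 and 3, or 4.81, 3.82 and 4.35 CPM, and every library was well above 1 CPM and far below every library of any other member. The mean was 4.32 ± 0.496 CPM. The pooled 122 reads give an exact 95% Poisson interval of 3.59 to 5.16 CPM, which covers counting error only, as do all intervals of this kind here. That placed Tert at percentile 30.8 of tested genes by CPM and at percentile 27.7 per kilobase of exon. Tert (ENSMUSG00000021611.9) lies on chromosome 13 at 73626911 to 73649843 of GRCm38, plus strand, with 7 annotated transcripts and 16 exons in the longest coding one, and no other annotated gene overlapped it or began within 200 bases.

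The sequence before the start of Tert is shown because this gene sets the lower end of the set. It is the RefSeq window of 250 bases upstream of the annotated start (chr13:73626661-73626910, plus strand, GRCm38.p6), holds no annotated exon, and carries a GC box (GGGCGG or its complement CCGCCC, the site read by Sp1-type factors) at 2 places, in capitals:
Tert: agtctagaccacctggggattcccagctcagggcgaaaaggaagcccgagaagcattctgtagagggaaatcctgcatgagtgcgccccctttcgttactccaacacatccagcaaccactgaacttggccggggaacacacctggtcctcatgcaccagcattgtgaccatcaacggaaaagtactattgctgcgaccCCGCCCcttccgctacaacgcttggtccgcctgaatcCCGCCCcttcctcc
The capitals begin 51 and 14 bases before the start. A GC box occurred on either strand in 35.9% of 27025 RefSeq windows of 300 bases (250 before to 50 after the first listed start). It occurred in the windows of 5 of the 8 members with an entry. Terf1 had no entry, so its start region was not searched. The E-box CACGTG, the site read by MYC and MAX, occurred in none of the 8 windows and in 7.24% of all. These letters describe the windows and were chosen after the sequences had been seen.

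Dkc1, the dyskerin gene, was the highest member on both scales. Its levels were 110.4, 112 and 110.3 CPM in replicates 1, 2 and 3, a mean of 110.9 ± 0.921 CPM from 3129 reads. The libraries did not overlap with those of any other member, and Dkc1 stood at percentile 84.9 of tested genes. Dyskerin also serves the small nucleolar RNA particles that modify ribosomal RNA, so its transcript is not particular to telomerase. Within each library Dkc1 had far more reads than Tert: 25.6 Dkc1 reads fell on each Tert read (exact 95% interval 21.4 to 31 from the pooled reads). Per kilobase of exon the log2 ratio was 4.98, 5.33 and 5.12 in the 3 libraries, or 5.15 ± 0.18, and limma's adjusted p was 4.62e-48. Dkc1 (ENSMUSG00000031403.14) lies on the X chromosome at 75095854 to 75109777, plus strand, has a small nucleolar RNA gene in an intron, and shares 45 exon bases with the end of Mpp1 on the other strand.

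**Figure D1:**
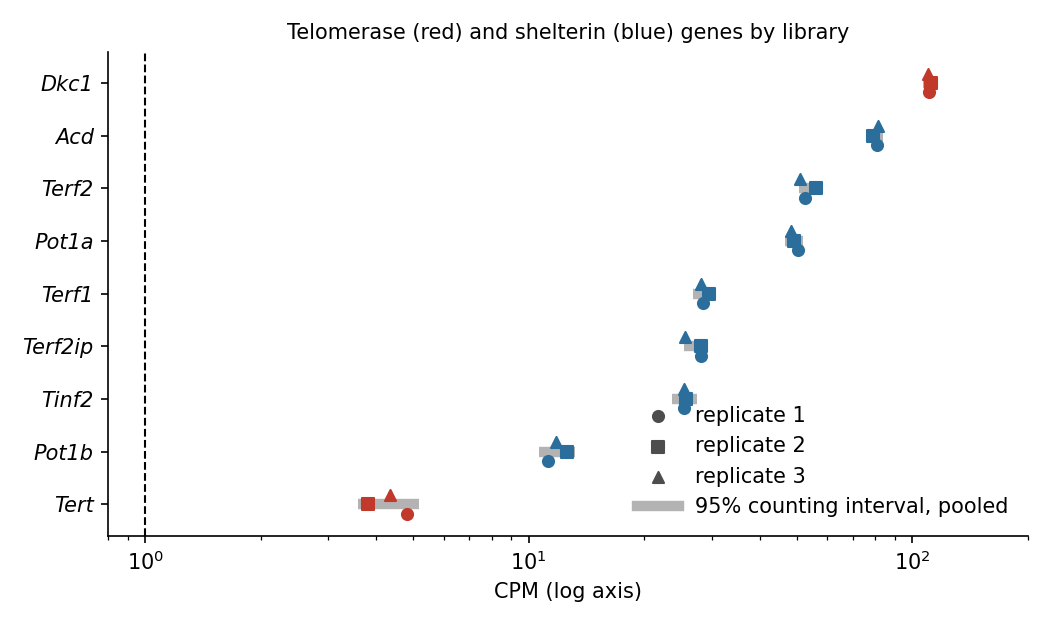
Level of each member in CPM (log axis) in Mock replicates 1, 2 and 3, with the pooled 95% counting interval as a grey bar and 1 CPM as a dashed line; telomerase genes are red and shelterin genes blue. Tert sits lowest at 3.82 to 4.81 CPM and Dkc1 highest at 110.3 to 112 CPM, and the 7 shelterin genes lie between them.

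The 7 shelterin genes summed to 277, 280.3 and 272 CPM in the 3 libraries, with single genes between 11.9 and 80.4 CPM. By reads the order was Acd, Terf2, Pot1a, Terf1, Terf2ip, Tinf2 and Pot1b, the same in 3 of 3 libraries. Some neighbours in it did not differ by reads in limma. These were Terf2 and Pot1a (adjusted p = 0.0969), Terf1 and Terf2ip (0.336), and Terf2ip and Tinf2 (0.228). Acd alone took 29.1 ± 0.893% of the shelterin reads and Pot1b 4.29 ± 0.229%.

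Of the duplex-binding pair, Terf2 was the higher. Terf2, whose protein TRF2 blocks end-to-end fusion, reached 52.7, 56.3 and 50.9 CPM, a mean of 53.3 ± 2.74 CPM. Terf1, whose protein TRF1 aids replication through the repeats, reached 28.5, 29.6 and 28.2 CPM, a mean of 28.8 ± 0.712 CPM. The libraries of these genes did not overlap. Their exon lengths are nearly equal, and per kilobase the log2 ratio of Terf2 to Terf1 was 0.89, 0.93 and 0.85, or 0.89 ± 0.04, with a 95% interval of 0.80 to 0.99 and an adjusted p of 2.23e-30 (limma). Among the 10867 genes tested against Terf1 in this way 95.5% differed from it, so a difference as such is the rule. Terf2ip, the RAP1 gene, stood at 28.2, 28.2 and 25.6 CPM, a mean of 27.3 ± 1.52 CPM. Although RAP1 is recruited by TRF2, its transcript was lower than that of Terf2 in 3 of 3 libraries, and per kilobase of exon Terf2 was 2.10-fold above it (exact 95% interval 1.93 to 2.30 from the pooled reads).

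Terf1 and Terf2 are related genes, and their likeness bears on how surely reads can be assigned. Over their longest reading frames 64.6% of 1220 aligned bases were identical, and the longest stretch they share, in capitals with 20 bases on either side, is short:
Terf1: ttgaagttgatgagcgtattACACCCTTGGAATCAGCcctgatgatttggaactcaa
Terf2: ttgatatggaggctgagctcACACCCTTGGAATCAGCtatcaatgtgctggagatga
The shared run is 17 bases (positions 406 to 422 of the Terf1 frame and 514 to 530 of the Terf2 frame, GENCODE M21). Terf2 had no word of 31 bases in common with transcripts of any other gene, and Terf1 shared 267 (5.76% of its words) with other genes, among them 54 with Tinf2 and 30 with Terf2ip. Both genes had whole-number counts in every library.

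Of the duplicated Pot1 genes, Pot1a was the higher. Pot1a, whose protein represses the ATR damage signal at telomeres, reached 50.4, 49.1 and 48.4 CPM, a mean of 49.3 ± 1.05 CPM. Pot1b, whose protein limits resection of the 5′ end, reached 11.2, 12.6 and 11.8 CPM, a mean of 11.9 ± 0.702 CPM. The libraries were far apart, and Pot1b took 19.4% of the reads of the pair (335 of 1726, exact 95% binomial interval 17.6% to 21.4%). Pot1b stood at percentile 39.2 of tested genes and Pot1a at percentile 66.5.

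Per kilobase of exon the log2 ratio of Pot1b to Pot1a was -1.44, -1.24 and -1.31 in the 3 libraries, or -1.33 ± 0.10, with a 95% interval of -1.51 to -1.16 and an adjusted p of 1.35e-19 (limma, 10867 genes, of which 95.3% differed from Pot1a). The size of this gap depends on the length used. The annotated exons of Pot1a merge to 8669 bases, whereas its longest transcript has 3271 and its longest coding transcript 3151. With the longest coding transcripts of both genes the ratio was -2.21, close to the ratio of reads (-2.05). Pot1b was the lower on each of these scales.

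Reads of the Pot1 genes can be told apart over most of their length, and the stretches of greatest likeness are shown for that reason. Over reading frames of 1923 bases each, 78.9% of 1920 aligned bases were identical. The longest shared run is 41 bases, at positions 469 to 509 of both frames, in capitals with 20 bases on either side:
Pot1a: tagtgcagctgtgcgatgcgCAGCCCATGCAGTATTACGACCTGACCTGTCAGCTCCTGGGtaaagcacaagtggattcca
Pot1b: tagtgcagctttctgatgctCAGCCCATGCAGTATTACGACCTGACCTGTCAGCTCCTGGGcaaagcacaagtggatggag
Of words of 31 bases, 11 occurred in both genes, which is 0.13% of those of Pot1a and 0.208% of those of Pot1b. All 6 counts of the pair were whole numbers. The genes lie on different chromosomes, Pot1a (ENSMUSG00000029676.15) on chromosome 6 at 25743737 to 25809246 and Pot1b (ENSMUSG00000024174.9) on chromosome 17 at 55651951 to 55712628, both on the minus strand.

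The start regions of the Pot1 genes have a motif in common, the palindrome CGCATGCG that forms the core of the site read by NRF1. It is in capitals in these stretches (chr6:25809248-25809275 and chr17:55712608-55712635, minus strand, GRCm38.p6, RefSeq):
Pot1a: tagcggagtaCGCATGCGtgaactaagc
Pot1b: ggttggagtgCGCATGCGtgtgtcccac
The motif begins 47 bases before the start in Pot1a and at base 12 of the transcript in Pot1b. It occurred in 1.91% of all windows and in 2 of the 8 member windows, these ones. The CRE TGACGTCA occurred in 1.88% of all windows and in those of Pot1a and Tinf2, and the ETS-type site CCGGAAGT in 4.0% of all windows and in that of Pot1b. These motifs too were chosen after the sequences had been seen. A match is a description of the window and not evidence of binding.

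Acd and Tinf2 encode the bridge of the complex, and they stood far apart. Acd, whose protein TPP1 carries POT1 and recruits telomerase, was the highest shelterin gene at 80.8, 79.0 and 81.3 CPM, a mean of 80.4 ± 1.24 CPM. Tinf2, whose protein TIN2 ties TRF1, TRF2 and TPP1 together, was at 25.4, 25.7 and 25.5 CPM, a mean of 25.5 ± 0.121 CPM. No library of one overlapped with a library of the other, and the log2 ratio of Acd to Tinf2 per kilobase was 2.10 ± 0.03. This gap too depended on the length. Taken as Tinf2 to Acd, the log2 ratio was -2.10 per kilobase, -1.65 by reads and -1.56 with the longest coding transcripts. Pot1a and Pot1b summed to 7.94 ± 0.121 CPM per kilobase, below the 22.2 ± 0.343 CPM per kilobase of Acd, whose protein binds both products. With the longest coding transcripts the sum was 19.0 ± 0.278 beside 25.5 ± 0.394 CPM per kilobase for Acd, so the ratio fell from 2.79 to 1.34, and this length was chosen after seeing the data.

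Both genes overlap a neighbour on the other strand, and the use of strand in counting is not given in the sources used here. Carmil2 covers 1208 bases (33.3%) of the merged exons of Acd (ENSMUSG00000038000.10, chromosome 8, 105695860 to 105701102, minus strand), and Gmpr2 covers 1540 bases (31.2%) of those of Tinf2 (ENSMUSG00000007589.9, chromosome 14, 55674689 to 55681820, minus strand). Carmil2 had 4 reads in each library, against 745 to 767 for Acd. Gmpr2 had 236, 225 and 239 reads, against 238, 242 and 240 for Tinf2. Reads in the shared exons could belong to either partner, and their part in the levels of Acd and Tinf2 was not tested. Some neighbours adjoin a member without sharing exons: the start of Kars lies 74 bases from that of Terf2ip and the start of Pard6a 45 bases from that of Acd, both running the opposite way, with 2621 to 2680 and 133 to 149 reads per library.

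Levels of different genes can be compared only per length. Per kilobase of merged exon the means were 26.9 CPM for Dkc1, 22.2 for Acd, 11.6 for Terf2, 6.24 for Terf1, 5.69 for Pot1a, 5.51 for Terf2ip, 5.17 for Tinf2, 2.25 for Pot1b and 0.755 for Tert. The upper end (Dkc1, Acd, Terf2) and the lower end (Pot1b, Tert) were in the same places in 3 of 3 libraries. In the middle, Terf1, Pot1a, Terf2ip and Tinf2 lay within a narrow band, and Pot1a and Terf2ip changed places in replicate 2. Of the 36 pairs of members, 34 differed by limma on within-library log2 ratios, beside 96.1% of all genes tested against Tert in the same way, 97.8% against Dkc1, 97.7% against Acd, 94.5% against Terf2, 94% against Terf2ip, 95.4% against Tinf2 and Pot1b, and the shares given above for Terf1 and Pot1a. At such shares 34 of 36 is what most pairs of genes show. The neighbours that did not pass were Terf2ip and Pot1a (log2 ratio of Pot1a to Terf2ip 0.05, interval -0.09 to 0.18, adjusted p = 0.531) and Terf2ip and Tinf2 (log2 ratio of Tinf2 to Terf2ip -0.09, interval -0.25 to 0.06, adjusted p = 0.258).

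The order within that middle band rested on the length chosen and on all 3 libraries being used. Terf1 and Terf2ip differed with all libraries (log2 ratio of Terf2ip to Terf1 -0.18, adjusted p = 0.0201) but not without replicate 1, 2 or 3 (adjusted p = 0.0566, 0.113 and 0.0512, limma). Terf1 and Pot1a (-0.14, 0.0260) did not pass without replicate 2 or 3 (0.172 and 0.0618). Pot1a and Tinf2 (-0.14, 0.0327) did not pass without replicate 1, 2 or 3 (0.115, 0.0951 and 0.0533). With the longest coding transcripts Pot1a rose to 15.6 CPM per kilobase, above Terf1 at 12.7, and Tinf2 at 8.63 moved above Terf2ip at 7.67. Dkc1, Acd and Terf2 kept the first places and Pot1b and Tert the last under each of the 3 definitions of length.

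**Figure D2:**
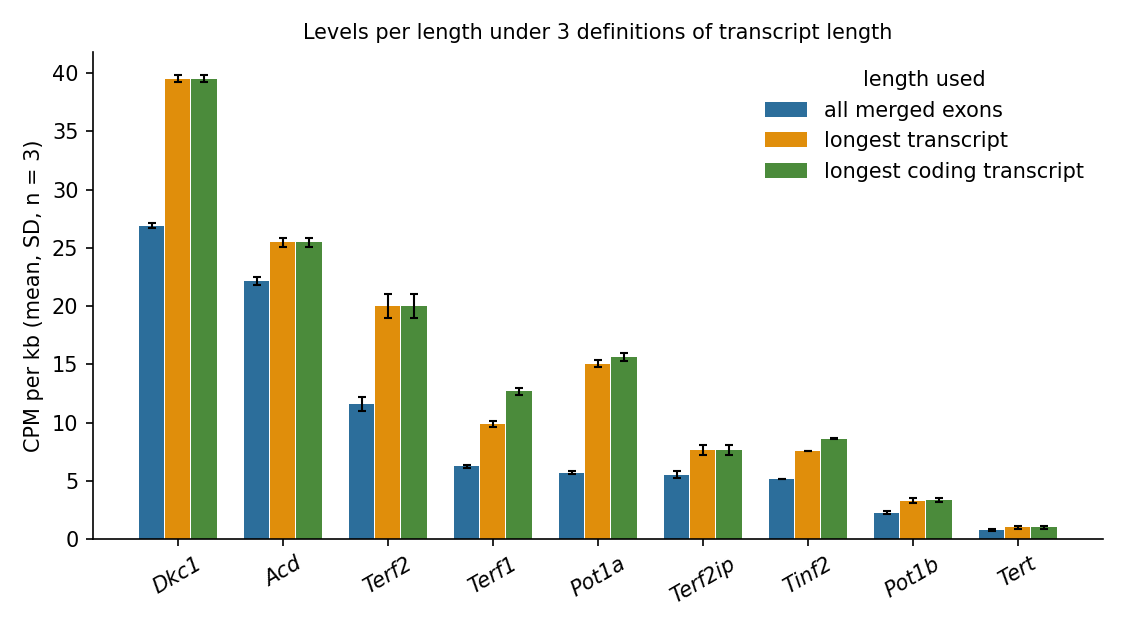
Mean CPM per kilobase (SD over 3 libraries as error bars) of each member, with length taken as all merged exons, the longest transcript or the longest coding transcript of GENCODE M21. In proportion Pot1a moves most, from 5.69 to 15.6 CPM per kilobase, while Dkc1, Acd and Terf2 stay highest and Tert stays lowest.

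**Figure D3:**
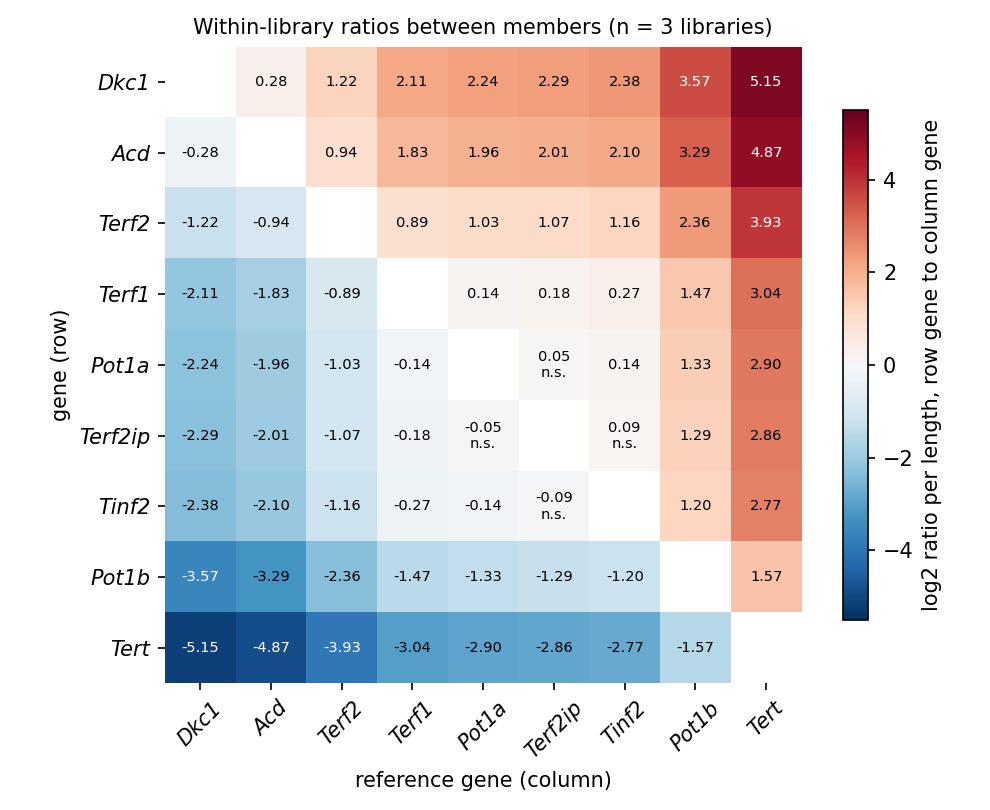
Mean within-library log2 ratio per kilobase of merged exon of the row gene to the column gene (n = 3 libraries), ordered by level; n.s. marks pairs whose adjusted p is 0.05 or more. Terf1, Pot1a, Terf2ip and Tinf2 form a pale block of small ratios, and the Tert column holds the widest gaps, up to 5.15 for Dkc1.

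As shares of the summed shelterin level per kilobase, Acd took 37.8 ± 1.09%, Terf2 19.8 ± 0.756%, Terf1 10.7 ± 0.139%, Pot1a 9.70 ± 0.190%, Terf2ip 9.40 ± 0.412%, Tinf2 8.81 ± 0.0961% and Pot1b 3.84 ± 0.204%. The share of Pot1a depended on the length: it was 17.8 ± 0.343% by reads and 16.7 ± 0.342% with the longest coding transcripts, above Terf1 at 10.4 ± 0.131% and 13.6 ± 0.154% on the same scales. These are shares of RNA and say nothing of the proteins' proportions.

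No difference between the libraries beyond counting error was detectable for any of the 9 genes, as for most genes of the table. The coefficient of variation of CPM ran from 0.476% for Tinf2 to 11.5% for Tert, and in 8 of the 9 genes it was under the value that counting error alone gives at their depth, as it was in 49.2% of the 11000 genes with an average of 10 or more counts. The exception was Terf2, at 5.14% beside 4.47%. A Poisson deviance test called 0 of the 9 genes variable, and 0 at an unadjusted p under 0.05, beside 3.31% and 14.9% of all genes tested. The smallest unadjusted p was 0.267, for Terf2 (adjusted p = 0.649, chi-square test with Benjamini-Hochberg adjustment over 11000 genes). At those shares a count of 0 of 9 is near the general one and sets the members apart from no other genes.

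The other proteins of the telomerase particle were also transcribed. In this and the following lists genes are named by CPM, which takes no account of length, so the values give no order of levels between genes. All 14 genes of the list with a row were above 1 CPM, as were 74.3% of all tested genes, with a median of 44.0 CPM, and Terc, the telomerase RNA, was not analysed here. The H/ACA proteins that bind the RNA together with dyskerin took the most reads, with Nop10 at 179 ± 6.26 CPM and Nhp2 at 144 ± 6.25 CPM. The fewest reads fell on Wrap53, which guides the particle to Cajal bodies, at 17.9 ± 0.669 CPM, and on Pinx1, an inhibitor of telomerase, at 14.9 ± 1.38 CPM. Per kilobase of exon the lowest of the 14 stood at 2.29 CPM, above the 0.755 of Tert.

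The genes that complete and replicate telomeric DNA were likewise all above 1 CPM, 14 of 14, beside 74.3% of all tested genes. Their median was 35.7 CPM. Fen1, a flap nuclease of lagging-strand synthesis, reached 114 ± 9.58 CPM and the polymerase alpha gene Pola1 75.2 ± 2.04 CPM. The RecQ helicase gene Wrn stood at 17.2 ± 0.341 CPM and Zbtb48, which encodes a protein that binds telomeric repeats and limits their length, at 8.75 ± 0.200 CPM. All 14 shelterin partners and modifiers were above 1 CPM as well, with a median of 56.4 CPM. Tnks2, a tankyrase gene, stood at 185 ± 5.24 CPM and the ubiquitin ligase gene Rlim, which targets TRF1 for degradation, at 175 ± 4.09 CPM. The nuclease partners Ercc4 and Ercc1 took the fewest reads of the list, 19.2 ± 1.84 and 12.9 ± 1.24 CPM.

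Genes linked to recombination-based lengthening and telomeric chromatin were above 1 CPM in 9 of 9 cases, beside 74.3% of all tested genes. Their median was 63.2 CPM. The histone H3.3 genes H3f3b and H3f3a stood at 937 ± 6.25 and 680.1 ± 14.9 CPM. The fewest reads fell on Smarcal1, an annealing helicase, at 28.7 ± 1.24 CPM and on the methyltransferase gene Suv39h2, at 11.5 ± 2.18 CPM. Atrx and Daxx, whose loss marks many tumours that lengthen telomeres without telomerase, stood at 144 ± 6.42 and 42.6 ± 2.40 CPM; both were picked out with their levels known. H3f3a and Suv39h2 had fractional counts, so their levels are less certain.

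Of 4 genes with a row that tie telomeres to the nuclear envelope in meiosis, 1 was above 1 CPM and 2 below, beside 74.3% and 20.2% of all tested genes. Sun1, which is also a somatic envelope gene, was the one above, at 62.2 ± 1.46 CPM. Kash5 (listed as Ccdc155) had 4, 3 and 2 reads, or 0.319 ± 0.108 CPM, and Terb1 had 1 read in replicate 1 and none in the others, which placed both below 1 CPM (edgeR, adjusted p = 0.00477 for Kash5 and 6.10e-04 for Terb1). Majin had no count, which allows up to 0.106 CPM over the group. Terb2 was not analysed here. Without replicate 1, Terb1 had no read and gave no test. Against 0.5 CPM, Kash5 was unresolved (edgeR adjusted p = 0.200). Against 1 CPM it was also below by the exact Poisson test (adjusted p = 5.47e-05). The same held with any replicate left out (edgeR, adjusted p up to 0.0350).

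Of 14 genes whose products are reported to act on the Tert promoter 12 were above 1 CPM, beside the 74.3% of all tested genes, and the list had a median of 62.7 CPM. The cell cycle factor gene E2f1 reached 140.3 ± 3.81 CPM and the insulator gene Ctcf, which had fractional counts, 124 ± 1.69 CPM. Myc, the best-known activator of Tert, stood at 103 ± 10.3 CPM and its partner Max at 95.3 ± 1.83 CPM, both likewise picked with their levels known. Mycn was below 1 CPM with 7 reads (0.248 ± 0.123 CPM, edgeR adjusted p = 0.00321), and Wt1 was unresolved at 0.780 ± 0.327 CPM (edgeR adjusted p = 0.329). Mycn had no call against 0.5 CPM (edgeR adjusted p = 0.0923). Against 1 CPM it was also below by the exact Poisson test (adjusted p = 4.59e-06). The same held with any replicate left out (edgeR, adjusted p up to 0.0335). Wt1 was below 2 CPM (edgeR adjusted p = 0.00314) and unresolved against 0.5 CPM (edgeR adjusted p = 0.124). With a replicate left out it stayed unresolved against 1 CPM (edgeR adjusted p = 0.194 to 0.861).

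**Figure D4:**
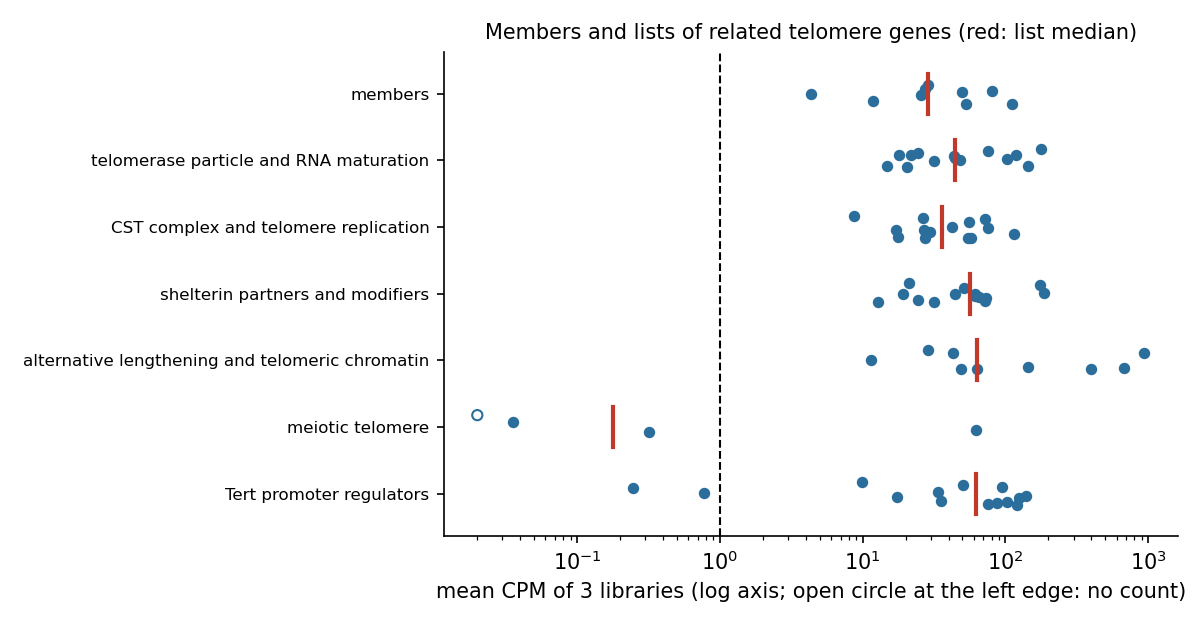
Mean CPM over 3 libraries (log axis) of the 9 members and of the genes of 6 related lists, with list medians in red, 1 CPM as a dashed line, and an open circle at the left edge for a gene with no count. All members lie right of the dashed line, from 4.32 to 110.9 CPM, while 3 of the 4 meiotic telomere genes lie left of it.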

How the data were processed

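RNA from 3 Mock samples of B16 cells was sequenced. The values the authors deposited are estimated counts per gene symbol and sample, unscaled. The submitters' processing notes name the build GRCm38.p6. The sources used here do not name the aligner, counter, annotation, filters or use of strand. Values off a whole number by over 0.005 occurred in 2270 of 17285 rows, among the members only for Dkc1 in replicate 2. Counts were rounded before every test.

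CPM used TMM-scaled totals (edgeR 4.0.16, R 4.3.3). Levels were tested against 1 CPM, two-sided, for genes with at least 1 count, with a quasi-likelihood F statistic for the intercept, computed from edgeR's fit because its test function takes no design of 1 column. A Benjamini-Hochberg adjusted p under 0.05 made a call, and other genes are termed unresolved. Ratios within libraries used counts plus 0.5 and limma 3.58.1 with a mean-variance trend, where counts averaged 10 or more and exon length was known. A reference gene's own error enters all its ratios, so of the 2 adjusted p-values of a pair the larger was used. The ranges over alternatives for Pot1b to Pot1a and Terf2 to Terf1 are the exception. They used Pot1a and Terf1 alone as the reference genes. Very small p-values should be read as small only. Variation was tested by Poisson deviance with 2 degrees of freedom at a mean of at least 10 counts. Positions and lengths are from GENCODE M21 (GRCm38), by symbol for 16838 symbols with 1 gene there. Start regions are RefSeq's. Fold and share intervals are exact binomial. Figures used matplotlib 3.10.9.

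The members and lists were chosen with earlier results of these data known. Named are all members, in each list the 2 highest and 2 lowest genes by mean CPM and those with no count, and neighbours of members. Atrx, Daxx, Myc and Max fall outside that rule. No gene was named for a pattern like a member's, since replicates of 1 group hold none. Alternatives covered normalization, test, reference level, filters, rounding, pseudocount, length and leaving out each replicate; DESeq2 1.42.0 was among them.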

Additional observations from a re-analysis of the deposited data

How the results depend on the processing

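No paired analysis was possible because all 3 samples form 1 group. The 9 members were above the reference level in all 99 combinations of member and alternative, with adjusted p-values up to 0.00955 and a log2 CPM of Tert between 2.03 and 2.20, and 0 members were called variable under any alternative run. The log2 ratio of Pot1b to Pot1a lay between -1.38 and -1.28 when a replicate was left out. It was -2.18 with the longest transcript and -2.21 with the longest coding transcript, an alternative chosen after seeing the data. The log2 ratio of Terf2 to Terf1 ran from 0.65 with the longest coding transcript to 1.01 with the longest transcript. The adjusted p of these ratios, here with Pot1a and Terf1 alone as the reference genes, depended on the mean-variance trend. Without it limma gave 1.26e-05 and 1.80e-05, the upper ends of ranges that began at 1.26e-35 and 2.23e-71. Of the 36 pairs of members 31 to 32 differed with a replicate left out, 33 by reads, 35 with the longest transcript and 36 with the longest coding transcript. The pairs of Terf1 with Terf2ip (adjusted p = 0.0512 to 0.113), Terf1 with Pot1a and Pot1a with Tinf2 lost the call without at least 1 replicate.

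Among all genes, 2907 were below 1 CPM by edgeR, but 408 under a filter of at least 10 counts, which leaves out most low genes, and 1835 to 2203 with a replicate left out. DESeq2's Wald test called 0 below, also at an unadjusted p under 0.05, and so cannot decide on low genes. The count of variable genes, 364, was 129 to 244 with a replicate left out, with fewer samples tested. The count of meiotic telomere genes below was 1 against 0.5 CPM and 1 to 2 with a replicate left out. The count of Tert promoter regulators below was 0 against 0.5 CPM and 2 against 2 CPM. Tert, with 36 to 45 reads a library, is the member whose precision depth limits most.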
